A study of Mus musculus with 12 samples.

Results

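The genes described here are 8 members of the machinery that moves protons and buffers acid in epithelial cells: the proton pump genes Atp12a and Atp4a, the pump beta subunit gene Atp1b1, and the carbonic anhydrase genes Car2, Car13, Car9, Car12 and Car6. They were found by symbol in the platform annotation and are 8 of 23102 genes measured. The members were chosen by the measured difference between the 2 tumour groups, in which Atp12a and Car2 stood far higher in KHR tumours, together with their relatives. The differences between the groups are therefore given as descriptions, with no test. Tested instead is whether the genes vary together among tumours of the same group, and how related genes taken by name behaved. The lists and tests for this were chosen with earlier results of these data known.

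The series compared oral tumours written KHR, which expressed RAS together with human papillomavirus, labelled iHPV and, in a further label, HPV E6 (n = 6), with oral tumours written KR, which expressed RAS without it (n = 6). All 12 tumours grew in F1 mice of C57BL/6 and FVB that had been injected with tamoxifen, so RAS, the strain cross and tamoxifen are shared by both groups. The labels do not name the promoters that drive RAS and iHPV, the age of the mice or the number of animals that gave the tumours. The p-values therefore measure the spread between these samples. Each tumour was read on 1 Affymetrix Mouse Gene 2.0 ST array, and a gene value is the median log2 intensity of its probesets. Array medians lay between 5.62 and 5.75, and the number of arrays limits the precision. The female-specific RNA Xist was high on 4 of 6 KHR arrays and on 2 of 6 KR arrays. Keratinocyte genes were bright in every tumour, and the mean of 8 basal keratinocyte genes was 10.14 ± 0.07 in KHR tumours and 10.11 ± 0.13 in KR tumours (SD, n = 6 each). In such bulk samples, fewer cells of a type and less RNA per cell cannot be told apart.

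The H+,K+-ATPases are P-type pumps that export a proton and take up potassium at the cost of ATP. Each consists of a catalytic alpha subunit and a glycosylated beta subunit, which the alpha subunit needs to reach the membrane. Carbonic anhydrases interconvert carbon dioxide and water with bicarbonate and a proton, and so supply protons to pumps and bicarbonate to exchangers. They are known as cytosolic, membrane-bound, secreted, mitochondrial and catalytically inactive forms.

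Of the 8 genes, Atp12a, Car2 and Atp1b1 were far higher in KHR tumours, and the other 5 lay within 0.4 log2 units of their KR means. The first 3 were among the genes higher in KHR tumours at an adjusted p under 0.05 in limma's fit of all genes, to which 2.71% of all genes belonged, and none of the 8 was among the 1.03% that were lower. Since this contrast chose the members, nothing is read from that count. The median change of the 8 genes was 0.31 on the log2 scale, against 0.00 for all genes. All KHR arrays lay above all KR arrays for 2 of the 8, Atp12a and Car2, against 1.83% of all genes; for no member did all KHR arrays lie below all KR arrays (0.84% of all genes, and 2.67% in either direction).

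**Figure D1:**
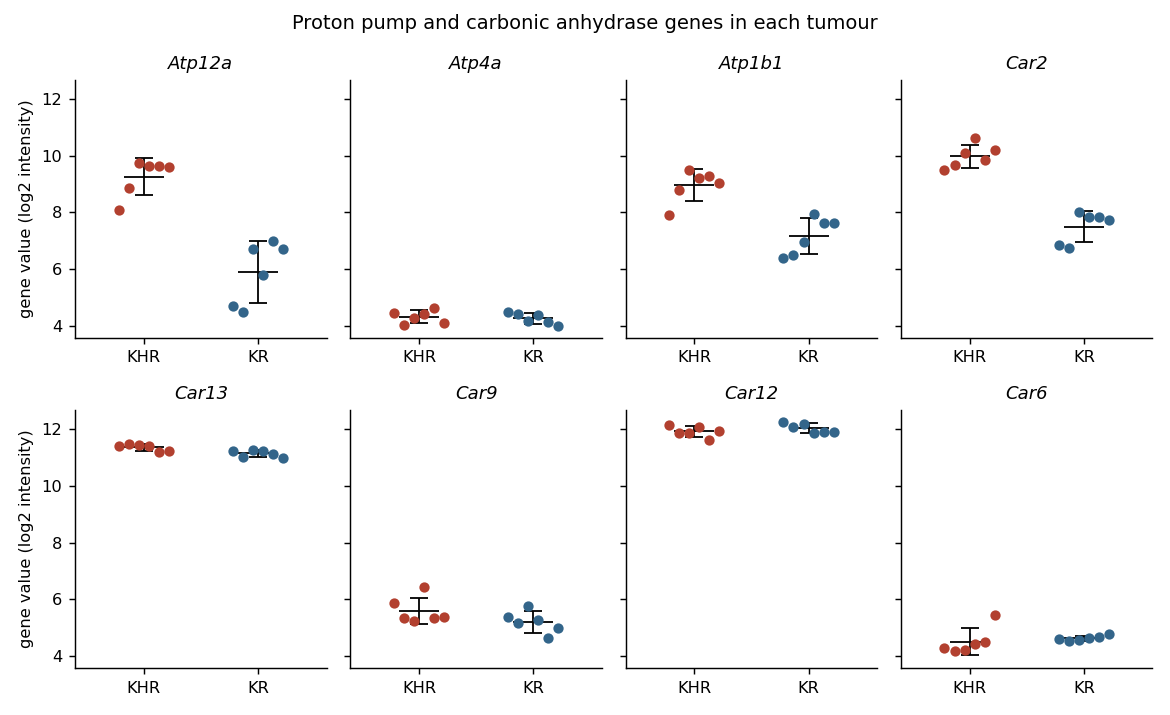
Gene values (log2 intensity, y axis) of the 8 genes in every tumour, with KHR tumours in red and KR tumours in blue; points are tumours in the order of their numbers, and bars are the mean with the SD (n = 6 each). Atp12a and Car2 show no overlap between the groups, Atp1b1 overlaps by 1 KHR tumour, and Car6 lies lower in all KHR tumours but KHR 6. For Car13, 4 of 6 KHR tumours lie above all KR tumours, and for Car9 2 of 6. The groups overlap for Atp4a and Car12 as well.

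Atp12a encodes the catalytic alpha subunit of the nongastric H+,K+-ATPase, known from the distal colon. Its value was 8.09, 8.86, 9.73, 9.64, 9.64 and 9.59 in KHR tumours 1 to 6, against 4.72, 4.48, 6.70, 5.79, 6.99 and 6.72 in KR tumours 1 to 6. The lowest KHR tumour, KHR 1, still stood 1.10 log2 units above the highest KR tumour, KR 5, while KR 1 and KR 2 lay well below the other KR tumours. The means were 9.26 ± 0.66 in KHR tumours and 5.90 ± 1.09 in KR tumours (SD, n = 6 each), a difference of 3.36 ± 0.45 (SE), or 10.3-fold. This was the difference of rank 3 among all genes, counted from the highest. All of its 23 probesets were higher in KHR tumours, by 2.20 to 4.53 log2 units, and for 21 of them the groups did not overlap. In KR tumours 18 of the 23 probesets had a mean above 4.98, the middle of the levels of all genes. The gene values of KR 1 and KR 2 lay below it.

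Atp4a encodes the alpha subunit of the gastric H+,K+-ATPase, the acid pump of parietal cells. Its value ranged from 4.05 to 4.64 in KHR tumours, with a median of 4.36, and from 4.00 to 4.51 in KR tumours, with a median of 4.28. The groups overlapped almost fully, and the difference was 0.06 ± 0.12 (SE), or -0.08 by the mean of probesets and -0.10 by median polish. Of its 22 probesets, 11 were higher and 11 were lower in KHR tumours. Its means were below 4.98 in both groups, while 7 of the 22 probesets in KHR tumours and 8 in KR tumours had means above it. The brightest was at 7.78 in KHR tumours and 8.73 in KR tumours, so single probesets stood far from the gene value. The means of Atp4b, its beta subunit gene, were below it too, at 4.19 ± 0.15 in KHR tumours and 4.12 ± 0.19 in KR tumours (SD, n = 6 each; limma adjusted p = 0.838). The parietal cell list of 3 genes, Atp4b, the intrinsic factor gene Cblif and the potassium channel gene Kcne2, had summed levels of 11.8 to 12.7 in KHR tumours and 11.7 to 12.7 in KR tumours.

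Atp1b1 encodes the beta-1 subunit of the Na+,K+-ATPase, which in rat tissues is known to assemble with the nongastric pump's alpha subunit as well. Its value was 7.91, 8.80, 9.49, 9.22, 9.29 and 9.02 in KHR tumours 1 to 6, against 6.38, 6.50, 6.96, 7.94, 7.62 and 7.62 in KR tumours 1 to 6. KHR 1 was the only KHR tumour that did not lie above all KR tumours, and KR 1 and KR 2 were again the lowest. The means were 8.95 ± 0.56 in KHR tumours and 7.17 ± 0.65 in KR tumours (SD, n = 6 each), a difference of 1.79 ± 0.30 (SE), or 3.45-fold, which was rank 25 among all genes. All 7 probesets were higher in KHR tumours, and 6 of them by at least 1 log2 unit; the remaining probeset differed by 0.04.

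**Figure D2:**
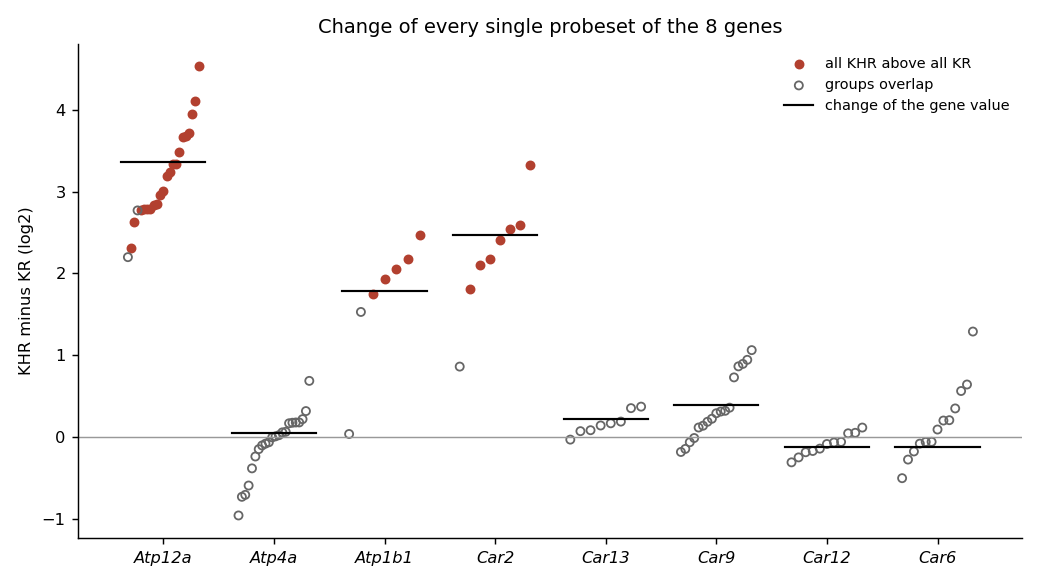
Difference between the group means (KHR minus KR, log2, y axis) of every probeset of the 8 genes (x axis). Red points are probesets with all KHR tumours above all KR tumours, open circles are probesets whose groups overlap, and lines are the change of the gene value; for Atp12a 21 of 23, for Car2 7 of 8 and for Atp1b1 5 of 7 probesets are red, and none is for the other 5 genes.

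The promoter of Atp1b1 in RefSeq (GRCm38.p6, chr1:164458306-164458605, minus strand, 250 bases before to 50 after the start) is shown because this is the pump subunit gene that stood higher together with Atp12a; capitals mark the GC box GGGCGG, here read on the opposite strand. The motifs searched on both strands in the promoters of the members that the table holds were this GC box, the core ACGTG of hypoxia response elements, and the AP-1 motif TGACTCA or TGAGTCA. Of all 32851 promoters of this length, 35.7% hold the GC box, 19.6% ACGTG and 5.20% the AP-1 motif.
Atp1b1: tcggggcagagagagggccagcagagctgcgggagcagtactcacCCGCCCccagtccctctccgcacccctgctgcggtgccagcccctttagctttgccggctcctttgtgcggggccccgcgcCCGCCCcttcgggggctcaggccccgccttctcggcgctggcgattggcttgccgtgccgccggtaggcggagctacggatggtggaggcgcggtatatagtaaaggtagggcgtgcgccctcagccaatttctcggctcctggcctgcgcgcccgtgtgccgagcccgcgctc
The window holds the GC box at 2 places and neither of the other motifs.

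Car2 encodes the most active cytosolic carbonic anhydrase, known from red cells, osteoclasts and acid-secreting epithelia. Its value was 9.49, 9.65, 10.08, 10.61, 9.85 and 10.18 in KHR tumours 1 to 6, against 6.84, 6.76, 8.01, 7.84, 7.83 and 7.73 in KR tumours 1 to 6. The gap between the lowest KHR tumour and the highest KR tumour was 1.48 log2 units, wider than the whole range of either group (1.11 in KHR tumours and 1.25 in KR tumours). The means were 9.98 ± 0.40 in KHR tumours and 7.50 ± 0.55 in KR tumours (SD, n = 6 each), a difference of 2.48 ± 0.25 (SE), or 5.56-fold, which was rank 10 among all genes. All 8 probesets were higher in KHR tumours, by 0.86 to 3.33 log2 units, and the groups did not overlap for 7 of them.

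Markers of other cells that carry Car2 were looked at beside it. Of 6 osteoclast markers, 1 rose in KHR tumours, the acid phosphatase gene Acp5, at 9.23 ± 0.17 in KHR tumours and 8.51 ± 0.16 in KR tumours (SD, n = 6 each; change 0.72 ± 0.10 SE, limma adjusted p = 0.00141). The summed levels of these 6 were 32.2 to 32.9 in KHR tumours and 31.1 to 32.7 in KR tumours, and 4 of the 6, Calcr, Ocstamp, Dcstamp and Oscar, had means under 4.98. Of 6 red cell markers only Alas2 and Epb42 were measured, and their mean was 4.25 ± 0.16 in KHR tumours and 4.56 ± 0.19 in KR tumours (SD, n = 6 each), with neither gene above 4.98 on average over the 12 arrays. The 5 ionocyte markers, among them the transcription factor gene Foxi1, also had means under 4.98, with summed levels of 20.2 to 20.6 in KHR tumours and 19.9 to 20.9 in KR tumours. The part of these cells in the Car2 values was not tested.

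Car13 encodes another cytosolic carbonic anhydrase and lies in the same cluster as Car2 on chromosome 3 of the RefSeq table. It ranged from 11.17 to 11.48 in KHR tumours, with a median of 11.40, and from 10.98 to 11.26 in KR tumours, with a median of 11.16. Although 4 of 6 KHR tumours lay above all KR tumours, the difference was only 0.22 ± 0.09 (SE), against 2.48 for Car2. Its 8 probesets differed by -0.03 to 0.37 log2 units.

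Car9 and Car12 encode membrane-bound carbonic anhydrases that face the outside of the cell, and Car9 is a classical target of hypoxia-inducible factor. Car9 ranged from 5.25 to 6.42 in KHR tumours, with a median of 5.36, and from 4.66 to 5.78 in KR tumours, with a median of 5.22. KHR 4 and KHR 1 stood above all KR tumours and the other 4 KHR tumours lay among them, for a difference of 0.39 ± 0.22 (SE). Car12 was bright in every tumour, from 11.61 to 12.12 in KHR tumours and from 11.84 to 12.25 in KR tumours. Its difference was -0.11 ± 0.11 (SE), and 8 of its 11 probesets were lower in KHR tumours.

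The promoters of these 2 genes are shown because Car9 is the member best known for induction by low oxygen, and the hypoxia genes of these tumours are described further on (RefSeq, GRCm38.p6, plus strand, chr4:43506776-43507075 for Car9 and chr9:66713436-66713735 for Car12). Capitals mark the AP-1 motif and the core ACGTG, which lies on the opposite strand, in Car9, and the GC box, on the opposite strand, in Car12.
Car9: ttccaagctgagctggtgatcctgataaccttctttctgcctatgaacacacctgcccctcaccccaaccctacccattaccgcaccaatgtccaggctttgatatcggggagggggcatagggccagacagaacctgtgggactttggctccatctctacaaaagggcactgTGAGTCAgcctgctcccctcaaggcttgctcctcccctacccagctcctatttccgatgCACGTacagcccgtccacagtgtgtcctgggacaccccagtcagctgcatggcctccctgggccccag
Car12: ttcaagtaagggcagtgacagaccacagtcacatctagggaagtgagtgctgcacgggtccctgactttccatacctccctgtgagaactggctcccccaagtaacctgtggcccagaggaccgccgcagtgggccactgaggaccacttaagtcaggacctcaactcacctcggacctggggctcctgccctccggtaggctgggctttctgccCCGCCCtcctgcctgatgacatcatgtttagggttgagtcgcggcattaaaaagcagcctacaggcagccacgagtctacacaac
In Car9 the match to ACGTG begins 18 bases before the start and the AP-1 motif 77 bases before it, without overlap; the Car12 window holds the GC box alone. The Car6 promoter, not shown, holds ACGTG on both strands and the GC box as well, and that of Atp4a holds none of the motifs. These matches describe the letters and show no binding.

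Car6 encodes the secreted carbonic anhydrase of saliva. It lay at 4.28, 4.20, 4.23, 4.44, 4.51 and 5.46 in KHR tumours 1 to 6, against 4.59, 4.55, 4.58, 4.63, 4.68 and 4.80 in KR tumours 1 to 6. All but KHR 6 were below every KR tumour, and KHR 6 was above them all. The difference was -0.12 ± 0.18 (SE), and the median over its 13 single probesets had the other sign, at 0.09, as had the change by the mean of probesets (0.17) or by median polish (0.15). Both group means of Car6 were below 4.98, though 5 of the 13 probesets in KHR tumours and 3 in KR tumours lay above it. The brightest was at 7.45 in KHR tumours and 7.24 in KR tumours, and the probeset that differed most was at 6.80 in KHR tumours and 5.51 in KR tumours. The mean of 13 salivary gland markers was 4.49 ± 0.09 in KHR tumours and 4.45 ± 0.09 in KR tumours (SD, n = 6 each), with the highest value, 4.58, in KHR 6 and KHR 1. Of the 13 markers, 2 had means above 4.98, and the part of salivary gland in the Car6 value of KHR 6 was not tested.

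Within the groups, Atp12a and Car2 had a positive correlation that passed the threshold over all 12 arrays but not without most single arrays. Because the groups differ in level, each gene was taken as its deviation from the group mean over the 12 arrays, and the p-values are exact permutation p-values, two-sided, from rearranging tumours within each group. Pearson's r between Atp12a and Car2 was 0.868 (p = 0.00155, adjusted p = 0.0435 over the 28 pairs of the 8 genes), and Spearman's rho was 0.741 (p = 0.0153, adjusted p = 0.214). Without the 2 tumours farthest from the median of Atp12a, KR 1 and KR 2, r was 0.639 (exact permutation p = 0.0828, n = 10), so the relation was weaker and did not pass. In KHR tumours alone r was 0.765 (exact permutation p = 0.0847, n = 6) and rho 0.714 (p = 0.136), and in KR tumours alone r was 0.917 (p = 0.0333, n = 6) and rho 0.543 (p = 0.297). Adjusted over the 28 pairs, the relation passed in 1 of the 12 fits that left out a single array, the one without KR 4 (exact permutation adjusted p = 0.0264), and the adjusted p without any of the other arrays was 0.0538 to 0.220. Inside each group, leaving out its 2 farthest tumours took r to -0.14 over 4 KHR tumours and to 0.03 over 4 KR tumours. Within either group the relation thus rests on its 2 farthest tumours. The same tumours were the lowest for both genes, KHR 1 and KHR 2 among KHR tumours and KR 1 and KR 2 among KR tumours. All 4 had low Xist, and KHR 1 and KHR 2 were the only KHR tumours with low Xist, as were KR 1, KR 2, KR 3 and KR 5 among KR tumours. With the Xist level removed, r was 0.833 (exact permutation p = 0.00921, adjusted p = 0.0961, n = 12).

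**Figure D3:**
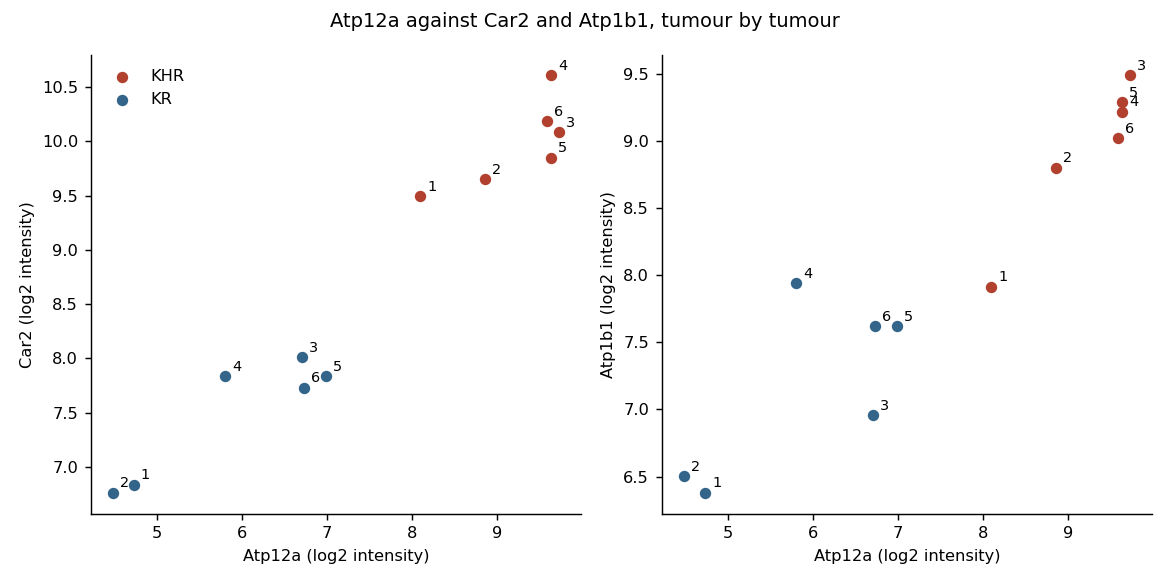
Atp12a (x axis, log2 intensity) against Car2 (left) and against Atp1b1 (right, y axes, log2 intensity) in each tumour, KHR in red and KR in blue, with tumour numbers. KR 1 and KR 2 are lowest for all 3 genes, and KHR 1 is the lowest KHR tumour for all 3.

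With the median over probesets, Atp1b1 did not pass with either gene after adjustment, though its r was the next highest for both. Its r with Atp12a was 0.782 (exact permutation p = 0.00902, adjusted p = 0.103; rho 0.622, p = 0.0632) and 0.577 without KR 1 and KR 2. In KHR tumours alone its r with Atp12a was 0.966 (exact permutation p = 0.00278, n = 6; rho 0.943, p = 0.0167), and 0.955 without KHR 1 and KHR 2. In KR tumours alone it was 0.704 (exact permutation p = 0.163, n = 6), and -0.52 without KR 1 and KR 2. Its r with Car2 was 0.741 (exact permutation p = 0.0145, adjusted p = 0.103; rho 0.566, p = 0.0873), and 0.592 without KHR 1 and KR 1. In KR tumours alone that r was 0.793 (exact permutation p = 0.0736, n = 6), and -0.76 without KR 1 and KR 2. With the mean over probesets or with median polish in place of the median, all 3 pairs of Atp12a, Car2 and Atp1b1 passed (exact permutation, adjusted p from 0.00405 to 0.0238).

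None of the other relatives passed with Atp12a or Car2. The r of Atp4a, Car6, Car9, Car12 and Car13 with Atp12a lay between -0.48 for Atp4a and 0.28 for Car6, and none passed (lowest exact permutation p = 0.120). With Car2 they lay between -0.38 for Atp4a and 0.27 for Car6 (lowest exact permutation p = 0.229). Car9 and Car12 had an r of 0.677 with each other (exact permutation p = 0.0261, adjusted p = 0.146; rho 0.671, p = 0.0231), which was 0.610 without KHR 4 and KR 3 and passed with median polish (0.823, adjusted p = 0.0216). Atp1b1 and Car12 had a negative r, -0.73 (exact permutation p = 0.0147, adjusted p = 0.103; rho -0.82, p = 0.00547) and -0.53 without KHR 1 and KR 1.

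**Figure D4:**
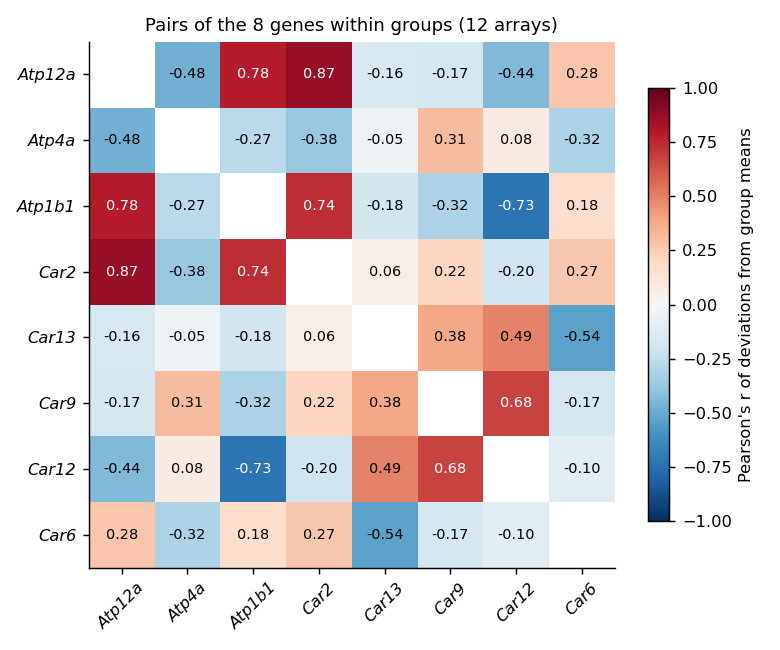
Pearson's r of the deviations from the group means for the 28 pairs of the 8 genes over 12 arrays (colour and printed value). Atp12a, Car2 and Atp1b1 form a block of 0.74 to 0.87, and Car9 with Car12 stands at 0.68.

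A small share of other genes had a higher r with Atp12a or Car2 than these 2 genes had with each other. Among 11550 other genes whose mean was above the median of all genes, 24 (0.208%) had a higher r with Atp12a than Car2 did, and 142 (1.23%) a higher one than Atp1b1. With Car2, 22 (0.19%) had a higher r than Atp12a did, and 254 (2.20%) a higher one than Atp1b1. The 6 nearest to Atp12a were Slc35a1, a nucleotide sugar transporter (0.940), 2610301B20Rik (0.937), the RAS-like gene Rerg (0.928), Pole4, of DNA polymerase epsilon (0.924), the primase subunit gene Prim2 (0.924) and the ciliary gene Tmem67 (0.914). The 6 nearest to Car2 were the phospholipase gene Ddhd1 (0.928), the RNA-binding protein gene Grsf1 (0.924), Prim2 (0.914), the fatty acid elongase gene Elovl4 (0.913), the oncostatin M receptor gene Osmr (0.911) and Imp3 (0.902). Prim2 stood on both lists and rose in KHR tumours, to 9.49 ± 0.20 against 8.61 ± 0.22 in KR tumours (SD, n = 6 each; change 0.88 ± 0.12 SE, limma adjusted p = 0.00125). Ddhd1 and Osmr rose as well, by 1.68 ± 0.19 and 1.11 ± 0.24 (SE; adjusted p = 0.000412 and 0.0203). The other 8 of the 11 genes did not pass (limma adjusted p from 0.221 to 0.988). These are likenesses over 12 arrays of 1 normalization, given as a description.

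The same deviations were set against the means of 8 lists (markers of salivary gland, skeletal muscle, adipocytes, red cells, macrophages, squamous differentiation and basal keratinocytes, and hypoxia response genes), and none of the 64 relations passed (exact permutation, adjusted p from 0.368). The smallest p was that of Car9 with 17 measured hypoxia response genes, with r = 0.799 (exact permutation p = 0.00575, adjusted p = 0.368; rho 0.706, p = 0.0165) and 0.506 without KHR 4 and KR 3. The hypoxia mean was highest in KHR 4, at 9.22, where Car9 was highest as well, at 6.42. The 64 relations pool the 2 groups, and r inside the groups differed in sign for some. For Car2 with squamous differentiation it was 0.825 in KHR tumours and -0.72 in KR tumours. For Atp1b1 with salivary gland it was -0.77 in KHR tumours and 0.868 in KR tumours. These were picked after their values were seen (exact permutation p from 0.0333 to 0.0417, unadjusted, n = 6 each). The skeletal muscle mean was 6.37 ± 0.81 in KHR tumours and 5.92 ± 0.45 in KR tumours (SD, n = 6 each), highest in KHR 5 at 7.62. Its r with Atp12a was 0.377 (exact permutation p = 0.178; rho 0.329, p = 0.280; 0.425 without KR 1 and KR 2). It was larger in size with Car12 (-0.66, exact permutation p = 0.0277) and Atp1b1 (0.543, p = 0.0708; adjusted p = 0.859 for both). Without KHR 5 and KR 1 the r with Car12 was -0.27, and without KHR 1 and KR 1 that with Atp1b1 was 0.10. Of 18 squamous differentiation markers, 38.9% passed in limma, against 3.74% of all genes. The 7 that passed are named after their values were seen. The cornified envelope precursor gene Ivl and the protease gene Klk7 rose in KHR tumours, by 1.59 ± 0.30 and 1.09 ± 0.15 (SE; limma adjusted p = 0.00960 and 0.00125). The mucosal keratin gene Krt13 fell by 1.26 ± 0.22 and the small proline-rich gene Sprr3 by 0.97 ± 0.23 (SE; limma adjusted p = 0.00571 and 0.0336), and the transglutaminase genes Tgm1 and Tgm3 and the loricrin gene Lor fell as well (adjusted p from 0.0244 to 0.0373). The 18 markers' summed levels were 210.0 to 218.9 in KHR tumours and 215.9 to 220.4 in KR tumours. Macrophage markers averaged 5.94 ± 0.28 in KHR tumours and 5.62 ± 0.26 in KR tumours (SD, n = 6 each), and none of the 8 passed in limma; nor did any of the 15 muscle, 13 salivary gland, 7 adipocyte, 2 red cell or 8 basal keratinocyte markers. The part of these cells in the members' differences was not tested.

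Related transport genes and hypoxia genes, taken by name, showed little of the change seen in Atp12a, Car2 and Atp1b1. Of 113 measured genes in 8 lists, 2 rose and none fell in KHR tumours. This was 1.77%, against 3.74% of all genes called in limma's fit, and the median change of the 113 was 0.06 on the log2 scale. Means above 4.98, the middle of the levels of all genes, were held by 59 of the 113. With only such genes kept, 3 of the 59 were called, against 1007 of 11551. For the dimmer genes, little change and little signal cannot be told apart. Of 12 measured P2C-type ATPase subunits and their small FXYD partners, 1 rose: Fxyd4, a regulator of the sodium pump known from colon and kidney. It lay at 7.73, 6.22, 7.53, 7.45, 6.29 and 6.97 in KHR tumours 1 to 6, against 5.77, 5.88, 5.49, 5.73, 5.79 and 6.81 in KR tumours 1 to 6. KHR 2 and KHR 5 lay below KR 6, and the change of 1.12 ± 0.28 (SE; adjusted p = 0.0440) lost its call in 13 of 22 alternatives (adjusted p up to 0.106), among them leaving out any array other than KHR 2, KHR 5 or KR 6. The other beta subunit gene that was bright, Atp1b3, differed by 0.11 ± 0.09 (limma adjusted p = 0.629; named after its values were seen).

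Of 24 measured subunits of the V-ATPase, the proton pump of lysosomes and of some plasma membranes, 1 rose. This was Atp6v1c2, an isoform of the C subunit, at 9.02 ± 0.21 in KHR tumours and 8.50 ± 0.13 in KR tumours (SD, n = 6 each; change 0.52 ± 0.11 SE, limma adjusted p = 0.0144), with no overlap between the groups. Summarised by the mean of its probesets its change was 0.22, and by median polish 0.18, and neither passed (adjusted p = 0.173 and 0.341). The median change of the 24 subunits was 0.06.

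None of the other 11 carbonic anhydrase genes passed, and their median change was 0.04. Only 2 of the 11 had means above 4.98. The smallest p were those of Car3, the cytosolic form of muscle and fat, and Car4, a membrane-anchored form, with changes of 0.67 ± 0.37 and 0.17 ± 0.15 (SE; limma adjusted p = 0.425 and 0.674). Car3 lay at 5.40, 5.90 and 6.42 in KHR 2, KHR 4 and KHR 5, at 4.14, 4.19 and 4.15 in KHR 1, KHR 3 and KHR 6, and between 3.90 and 4.68 in the KR tumours. The first 3 KHR tumours also had the highest skeletal muscle means, at 6.56, 6.79 and 7.62.

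None passed among 15 bicarbonate and anion exchangers, 15 proton and lactate transporters, 11 potassium and chloride partners of proton secretion, 8 acid sensors or 17 hypoxia response genes. Means above 4.98 were held by 4, 8, 2, 1 and 17 of these, in that order. Slc16a3, the lactate and proton exporter of glycolytic cells, came nearest, at 7.55 ± 0.69 in KHR tumours and 6.61 ± 0.28 in KR tumours (SD, n = 6 each; change 0.94 ± 0.26 SE, limma adjusted p = 0.0701), and passed in 6 of 22 alternatives (adjusted p = 0.0113 without KHR 5). Slc9a9, an endosomal sodium and proton exchanger, differed by -0.47 ± 0.15, and the anion exchanger Slc4a3 and its relative Slc4a11 by 0.37 ± 0.13 and 0.48 ± 0.18 (SE; adjusted p = 0.123, 0.158 and 0.204). The chloride cotransporter Slc12a2 differed by -0.42 ± 0.14 and Clic6 by -0.15 ± 0.10 (SE; adjusted p = 0.134 and 0.534). The acid-sensing channel genes Asic4 and Asic1 differed by -0.12 ± 0.09 and 0.10 ± 0.10 (SE; adjusted p = 0.601 and 0.704). Of the hypoxia genes, the prolyl hydroxylase Egln3 and the glycolysis regulator Pfkfb4 differed by 0.47 ± 0.14 and 0.46 ± 0.14 (SE; adjusted p = 0.0927 and 0.0997), and the list's median change was 0.17.

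**Figure D5:**
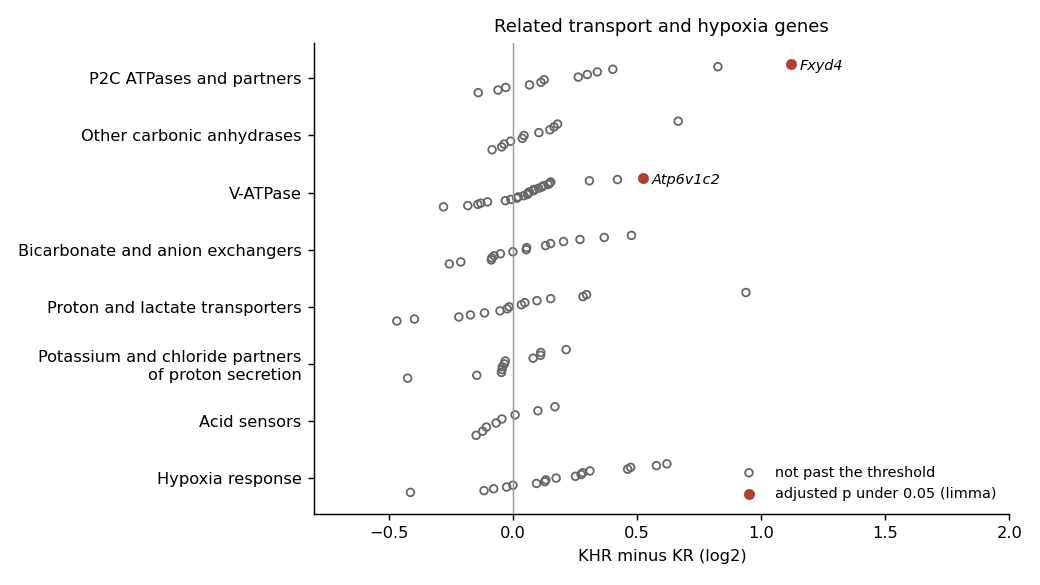
Change (KHR minus KR, log2, x axis) of each measured gene of 8 related lists (rows, each point a gene); filled points passed the threshold in limma's fit of all genes. Only Fxyd4 and Atp6v1c2 are filled, of 113 genes.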

How the data were processed

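The authors deposited log2 intensities per probeset for 269751 probesets on 12 arrays, with no missing value. The labels name Partek without a version, per the submitters' processing notes. How background was corrected and arrays were normalized, and on which build, was not given in the sources used here. The log base was read from the values, which lie between 2.66 and 14.9. Arrays correlated at 0.935 to 0.970, so none was a copy. Probesets were named by GEO's platform annotation, and 233753 had 1 symbol, 5106 several and 30892 none. Of 23152 symbols, 20875 were current in RefSeq's GRCm38.p6 table, 2247 were updated through a synonym and 30 kept. Gene values are medians of probesets with 1 symbol, with a median of 8 probesets a gene and 7 to 23 for the members. Smgc and Muc19 share 1 entry. No filter on dim genes was set, and no detection call was used.

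Changes are KHR minus KR from limma 3.58.1 (lmFit, eBayes) in R 4.3.3 on all 12 arrays, two-sided, with Benjamini-Hochberg adjustment over all genes and a threshold of 0.05. The fit was tested on simulated data. Correlations used Python 3.11.15, pandas 2.3.3 and numpy 2.4.6, and figures matplotlib 3.10.9. The members, lists and tests were chosen with earlier results of these data known. Named were the members, of each related list up to 4 genes past the threshold or else the 2 with the smallest p, the 2 nearest measured genes on each side of Atp12a and Car2, and the 6 genes most like each. Other genes named, the markers among them, serve as checks. Promoters are RefSeq's, and 5 of 8 members were matched, without Atp12a, Car2 and Car13. Alternatives were the mean or median polish over probesets, quantile normalization, subtracted array medians, a filter on dim genes, a minimum of 3 probesets, weighted arrays, a trended and robust eBayes, Xist as a covariate, the replicate number as a block and leaving out each array.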

Additional observations from a re-analysis of the deposited data

Results flagged for a closer look

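Among the 8 members, 1 of 16 groups held a tumour far from the others: Car6 was 5.46 in KHR 6, against 4.51 in the next tumour of its group. Chance gives about 1 such group in 20. Among the 32 other named genes, 9 of 64 groups held such a tumour. In KHR tumours, Asic1 was 4.30 in KHR 5, Car1 5.20 in KHR 4, Clic6 3.77 in KHR 1 and Slc9a9 9.16 in KHR 2, each the highest of its group, and Gzmc was 3.56 in KHR 5 and Tmem67 6.01 in KHR 1, each the lowest. In KR tumours, Cenpj was 5.56 in KR 5, Fxyd4 6.81 in KR 6 and Gm9733 4.40 in KR 4, each the highest of its group.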

How the results depend on the processing

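The changes of the 8 members moved by less than 1 SD between tumours in all 152 comparisons with an alternative. Atp12a ranged from 3.05 to 3.59, Car2 from 2.23 to 2.58 and Atp1b1 from 1.52 to 1.99, while Atp4a and Car6 took either sign (-0.10 to 0.11 and -0.31 to 0.17). The number of genes called was 863, and became 1445 with the mean over probesets, 555 with the Xist level as a covariate, 523 without KHR 4 and 531 without KR 2 (523 to 1085 on leaving out single arrays). Of related genes 2 were called. There were 4 with the mean over probesets, 5 with median polish, and 1 with quantile normalization, with array medians subtracted or with the Xist covariate. Leaving out single arrays gave 1 (without KHR 1, KHR 3, KHR 4, KHR 6, KR 2, KR 3, KR 4 or KR 5) to 5 (without KHR 5), with 4 without KHR 2. The r of Atp12a and Car2 stayed between 0.814 and 0.908 on leaving out single arrays (exact permutation p up to 0.00786, unadjusted), but adjusted over the 28 pairs it passed in 1 of these 12 fits (adjusted p from 0.0264 to 0.220). Nor did it pass after adjustment with Xist removed (adjusted p = 0.0961) or as Spearman's rho (0.214). Unadjusted too, it did not pass in KHR arrays alone (0.765) or with KR 1 and KR 2 left out together (0.639), an alternative chosen after seeing the data. Of the 28 pairs 1 passed, with the probesets averaged 3, and with median polish 4. The cause of these shifts was not tested. With the replicate number as a block 925 genes were called, and Fxyd4 lost its call (adjusted p = 0.0604). Arrays of the same number correlated at -0.00 to 0.23 in their deviations, and 1 of 6 KHR arrays correlated best with its own number. The labels do not say whether tumours of the same number share more than it, and they were not treated as pairs. Without a detection call, signal over background limits the low probesets, and the values of Atp4a and Car6 depend on which probesets are weighed.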

Other observations

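The genes next to Atp12a and Car2 on the chromosome were not called with them, but most of them were dim. Only Cenpj had means above 4.98 in both groups, at 5.83 ± 0.44 in KHR tumours and 5.25 ± 0.16 in KR tumours (SD, n = 6 each). For the dimmer neighbours, little change and little signal cannot be told apart. In the order of RefSeq's GRCm38.p6 table, the nearest measured genes on either side of Atp12a are the granzyme genes Gzmb and Gzmc, the germ cell gene Rnf17 and the centriole gene Cenpj. They differed by 0.14 ± 0.13, 0.07 ± 0.09, 0.37 ± 0.14 and 0.59 ± 0.17 (SE; limma adjusted p = 0.690, 0.763, 0.212 and 0.0880). Beside Car2 lie Car3 and Car1 of the same cluster, and A930001A20Rik and Gm9733 on the other side. The last 3 differed by 0.15 ± 0.20, -0.01 ± 0.10 and 0.28 ± 0.14 (SE; limma adjusted p = 0.797, 0.988 and 0.375).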
